A study of Homo sapiens with 13 samples.

Results

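The mitochondrial ribosomal protein genes are the nuclear genes that encode the proteins of the mitochondrial ribosome. They were taken as the protein-coding genes of GENCODE version 44 whose symbol is MRPL or MRPS followed by a number and at most 1 letter, which gave 78 of 20033 protein-coding genes on chromosomes 1 to 22, X and Y. Of these, 49 carry an MRPL symbol (large subunit) and 29 an MRPS symbol (small subunit). The study mapped PTBP1, an RNA-binding regulator of splicing, and RUNX1, a haematopoietic transcription factor, on chromatin of MOLM-13 cells, an acute myeloid leukemia line, to ask whether both proteins occupy the same sites. Among its 13 libraries, CUT&Tag, in which a transposase tethered by an antibody cuts and tags nearby DNA, was run in 2 biological replicates each for PTBP1 and RUNX1 and once for IgG. CUT&RUN, which cuts with a tethered nuclease, was run in 2 replicates each for PTBP1, RUNX1, H3K27me3 and IgG. The labels give no treatment for any library. The data described here are 1 peak list per target, 9370 PTBP1 peaks and 7688 RUNX1 peaks, which leaves the spread between cultures unknown and no test between samples possible.

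The mitochondrial ribosome translates the messenger RNAs of the mitochondrial genome, which encode subunits of the respiratory chain and ATP synthase. Its RNA comes from mitochondrial DNA, whereas its proteins are encoded in the nucleus, made in the cytosol and imported, so building one requires the products of many dispersed nuclear genes. Promoters of genes for mitochondrial proteins are known for sites of NRF1 and of ETS-family factors such as GABP, and mitochondrial translation is a studied vulnerability of acute myeloid leukemia cells.

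Sequences of 6 members with peaks of both targets at the start and a searched motif within 50 bases of a summit, the position of highest fragment pileup, are shown to place those letters beside the summits. They are hg38 reference sequence, 5′ to 3′ on the strand of the named gene, and the capitals mark the matches: TGTGGT or TGCGGT for RUNX, CCGGAAG for ETS factors and GCATGCGC for NRF1, each sought on both strands. The ETS match at MRPL54 (chr19:3762616-3762712, plus strand) began at position -21 from the annotated start and lay 18 bases from the RUNX1 summit and 63 from the PTBP1 summit. At MRPS12 (chr19:38930494-38930591, plus strand) an NRF1 match lay 1 base from the RUNX1 summit and 33 from the PTBP1 summit, in coding exon 1 of SARS2, the mitochondrial seryl-tRNA synthetase gene that is read in the opposite direction.
MRPL54: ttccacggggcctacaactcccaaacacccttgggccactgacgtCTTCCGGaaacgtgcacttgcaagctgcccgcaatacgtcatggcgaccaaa
MRPS12: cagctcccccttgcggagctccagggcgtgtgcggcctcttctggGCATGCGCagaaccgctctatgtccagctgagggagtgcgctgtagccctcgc
MRPS18C: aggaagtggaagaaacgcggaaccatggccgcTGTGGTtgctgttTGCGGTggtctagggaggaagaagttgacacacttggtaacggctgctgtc
MRPL51: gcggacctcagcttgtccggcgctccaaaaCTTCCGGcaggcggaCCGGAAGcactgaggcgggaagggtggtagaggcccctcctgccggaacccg
MRPS18B: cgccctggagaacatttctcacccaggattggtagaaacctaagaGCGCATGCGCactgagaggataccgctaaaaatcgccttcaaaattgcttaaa
MRPS23: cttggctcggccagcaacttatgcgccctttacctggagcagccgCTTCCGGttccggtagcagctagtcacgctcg

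MRPS18C (chr4:83456054-83456149, plus strand, coding exon 1) held a pair of RUNX matches, at 4 and 17 bases from the RUNX1 summit and at 242 and 229 bases from the PTBP1 summit. MRPL51 (chr12:6493315-6493411, minus strand, upstream of the canonical transcript) held a pair of ETS matches in opposite orientations, 20 and 35 bases from the RUNX1 summit. MRPS18B (chr6:30617516-30617613, plus strand, upstream of the gene) held 2 overlapping NRF1 matches, which together form a run that reads the same on either strand, 4 and 6 bases from the PTBP1 summit. MRPS23 (chr17:57850027-57850103, minus strand) held an ETS match 26 bases from the RUNX1 and 39 from the PTBP1 summit. A match describes letters in the sequence and does not show a bound site.

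PTBP1 had a peak within 1 kb of the transcription start site (TSS, the annotated 5′ end of the gene) at 31 of the 78 mitochondrial ribosomal protein genes, 39.7% (95% Wilson interval 29.6 to 50.8), where the share over all protein-coding genes was 26.4%. RUNX1 had one at 20 of 78, 25.6% (17.3 to 36.3), with 21.3% over all genes. Both were present at 18 genes, 23.1% (15.1 to 33.6), with 17.3% over all genes. The all-gene share lay below the interval for PTBP1 and inside it for RUNX1 and for both. These intervals cover counting error only, and at a stricter peak threshold (−log10 q of at least 20) the PTBP1 share was 24.4% (16.2 to 34.9) with 17.8% over all genes, inside the interval.

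**Figure D1:**
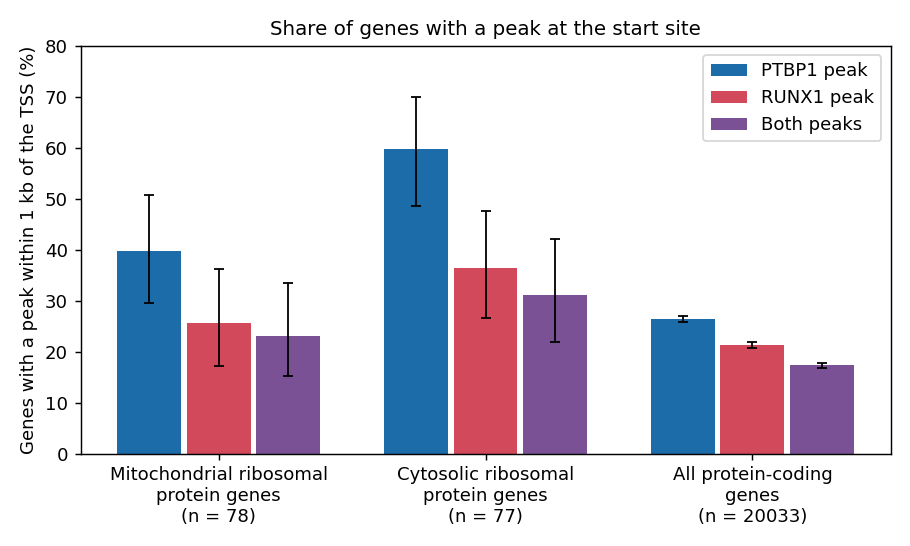
Percentage of genes with a PTBP1, RUNX1 or both peaks within 1 kb of the TSS, for the 78 mitochondrial ribosomal protein genes, the 77 cytosolic ribosomal protein genes and all 20033 protein-coding genes; error bars are 95% Wilson intervals. PTBP1 bars stand at 39.7%, 59.7% and 26.4%, and RUNX1 bars at 25.6%, 36.4% and 21.3%.

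The 18 genes with both peaks were MRPL4, MRPL18, MRPL23, MRPL36, MRPL38, MRPL40, MRPL41, MRPL51, MRPL54, MRPL57, MRPS12, MRPS18B, MRPS18C, MRPS23, MRPS24, MRPS28, MRPS30 and MRPS36. A further 13 genes had a PTBP1 peak alone, 16.7% (10.0 to 26.5) with 9.05% over all genes. A RUNX1 peak alone was found at 2 genes, MRPS16 and MRPS26, 2.56% (0.71 to 8.88) with 3.98% over all genes. Among the genes with a PTBP1 peak, 18 of 31 (58.1%, 40.8 to 73.6) had RUNX1 too, against 65.7% over all genes, and of the genes with RUNX1, 18 of 20 (90.0%, 69.9 to 97.2) had PTBP1, against 81.3%. A gene without a peak is one that passed no peak threshold, which does not show an absence of signal.

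The remaining 45 genes, 57.7% (46.6 to 68.0), had no peak of either target at the start, with 69.7% over all genes. For the large subunit these were MRPL1, MRPL3, MRPL9, MRPL10, MRPL13, MRPL14, MRPL15, MRPL16, MRPL19, MRPL20, MRPL21, MRPL22, MRPL24, MRPL27, MRPL28, MRPL30, MRPL32, MRPL33, MRPL34, MRPL35, MRPL37, MRPL39, MRPL42, MRPL43, MRPL44, MRPL46, MRPL47, MRPL48, MRPL52 and MRPL53. For the small subunit they were MRPS5, MRPS6, MRPS7, MRPS9, MRPS10, MRPS11, MRPS17, MRPS18A, MRPS21, MRPS22, MRPS25, MRPS27, MRPS31, MRPS33 and MRPS35. All 8 members on chromosome 2 and all 4 on chromosome 3 were in this class, whereas 3 of the 4 on chromosome 19 had both peaks. Over all protein-coding genes, PTBP1 was at 19.9% of starts on chromosome 2, 20.6% on chromosome 3 and 37.3% on chromosome 19. RUNX1 was at 20.05%, 19.52% and 24.46% of starts on the same chromosomes. All-gene shares with both or neither were not computed by chromosome. These chromosomes were picked after the counts were seen and hold few members each, so no conclusion is drawn.

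By subunit, PTBP1 was at the start of 19 of 49 MRPL genes (38.8%, 26.4 to 52.8) and 12 of 29 MRPS genes (41.4%, 25.5 to 59.3). RUNX1 was at 10 of 49 (20.4%, 11.5 to 33.6) and 10 of 29 (34.5%, 19.9 to 52.7). The intervals of the subunits overlapped for both targets. The symbol is an imperfect guide to the subunit, since the products of MRPS30 and MRPS18A sit in the large subunit and that of MRPS36 has been reassigned to the 2-oxoglutarate dehydrogenase complex. Of the 3 MRPS18 paralogs, MRPS18B and MRPS18C had both peaks and MRPS18A had none.

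Each member with a peak at the start had exactly 1 per list, and in nearly every case its extent included the TSS. The peak covered the TSS base at 30 of 31 members for PTBP1 and 18 of 20 for RUNX1. The exceptions were MRPS12, where both peaks ended 31 bases short of it, and MRPS30, where the RUNX1 peak began 230 bases inside the gene. All 18 pairs of PTBP1 and RUNX1 peaks overlapped each other. The shares of covering and of overlapping peaks over all protein-coding genes were not computed. Summits could lie away from a covered TSS. They were within 200 bases of it at 24 of 31 members for PTBP1 (77.4%) and 11 of 20 for RUNX1 (55%), with 54.2% and 51.7% over all genes. Just outside the window, the nearest further PTBP1 peaks lay 1063 bases from the start of MRPL36 (26.2-fold) and 1348 bases from that of MRPL41 (11.6-fold), and the nearest further RUNX1 peak lay 1393 bases from that of MRPL36 (12.03-fold). Among members with no peak at the start, the nearest PTBP1 peaks were those of MRPL28 at 3031 bases (11.6-fold) and MRPL35 at 3658 bases (20.3-fold), and the nearest RUNX1 peak was that of MRPL35 at 3761 bases (18.8-fold).

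**Figure D2:**
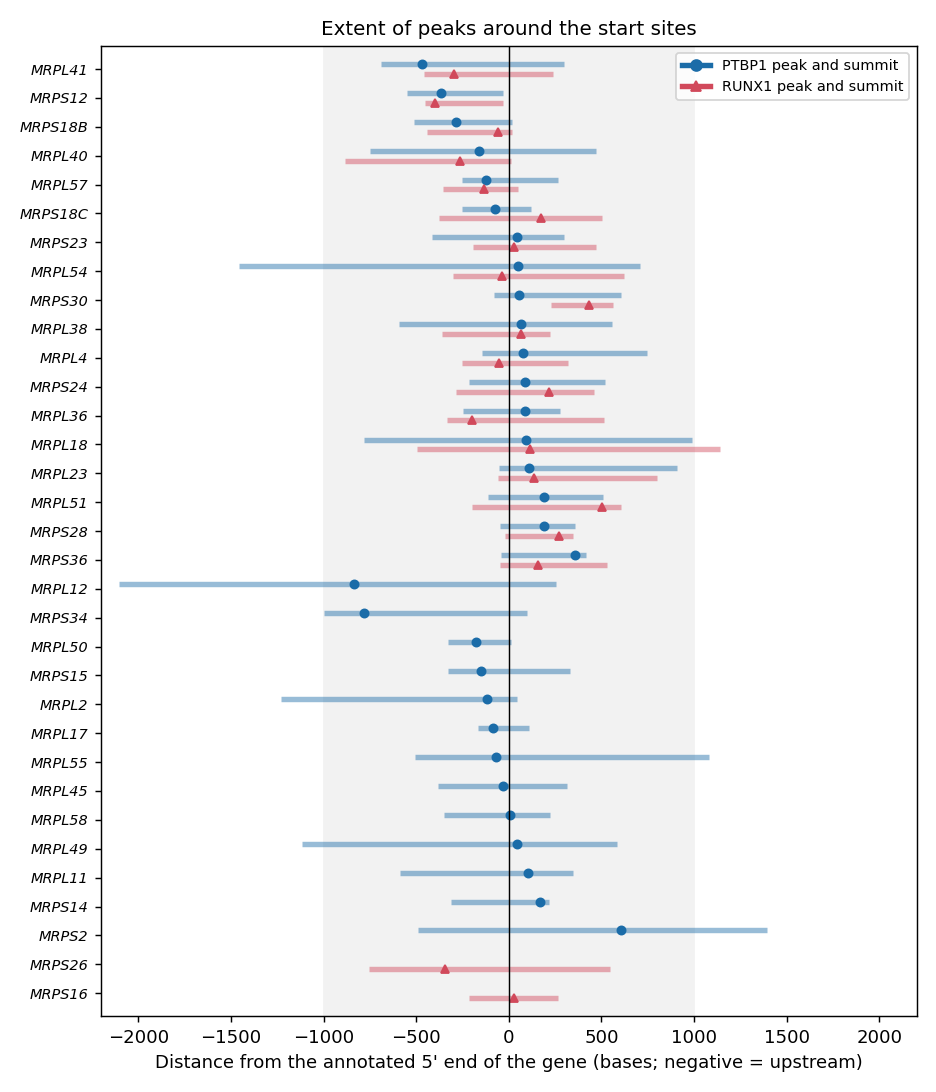
Extent (bars) and summit (circles, PTBP1; triangles, RUNX1) of the peaks at the 33 members with one, in bases from the annotated 5′ end along the gene's own strand; the grey band marks 1 kb either side. Bars cross the start at all members but MRPS12 and, for RUNX1, MRPS30.

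Peak strength, the fold enrichment of the summit pileup over background, spanned a wide range among the members. For PTBP1 the lowest, median and highest were 5.48, 15.1 and 98.2 (95% interval of the median 12.2 to 20.3, n = 31 genes), with a median of 15.7 over all protein-coding genes with a peak. For RUNX1 they were 8.27, 15.4 and 85.0 (11.3 to 24.8, n = 20 genes), with a median of 15.8 over all. Both all-gene medians lay inside the members' intervals. The summits rested on 15 to 168 fragments for PTBP1 (median 26) and 10 to 112 for RUNX1 (median 19.5), which sets the precision of single genes.

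MRPL54, a large-subunit protein gene, was highest in both lists, at 98.2-fold for PTBP1 (exact 95% Poisson interval 84.0 to 114) and 85.0-fold for RUNX1 (70.1 to 102). These values were at or above those of 98.4% and 98.3% of protein-coding genes with such a peak. No other member's interval reached that of MRPL54 in either list. MRPL38, whose product lies on the central protuberance of the large subunit, followed for PTBP1 at 65.1-fold (53.7 to 78.3) and had 30.8-fold for RUNX1 (22.2 to 41.7). MRPL18, also a large-subunit protein, had 42.4-fold for PTBP1 (33.3 to 53.3) and 43.6-fold for RUNX1 (33.2 to 56.3).

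From MRPL18 down in either list, neighbours in the order had overlapping intervals. Members far apart in the order could still be separated, as MRPS15 (5.46 to 15.0) was from MRPS12 for PTBP1. MRPS12, the counterpart of the bacterial decoding-site protein S12, had 28.5-fold for PTBP1 (21.2 to 37.6) and 24.1-fold for RUNX1 (16.6 to 33.8). MRPL49 had 26.7-fold for PTBP1 (19.7 to 35.6) and no RUNX1 peak. Over the full order, 2 of 30 neighbouring pairs for PTBP1 and 1 of 19 for RUNX1 had intervals that did not overlap. The lowest PTBP1 value, 5.48-fold at MRPS34, rested on 37 fragments over a background of 5.93 fragments, where the other member peaks at the start had 0.72.

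**Figure D3:**
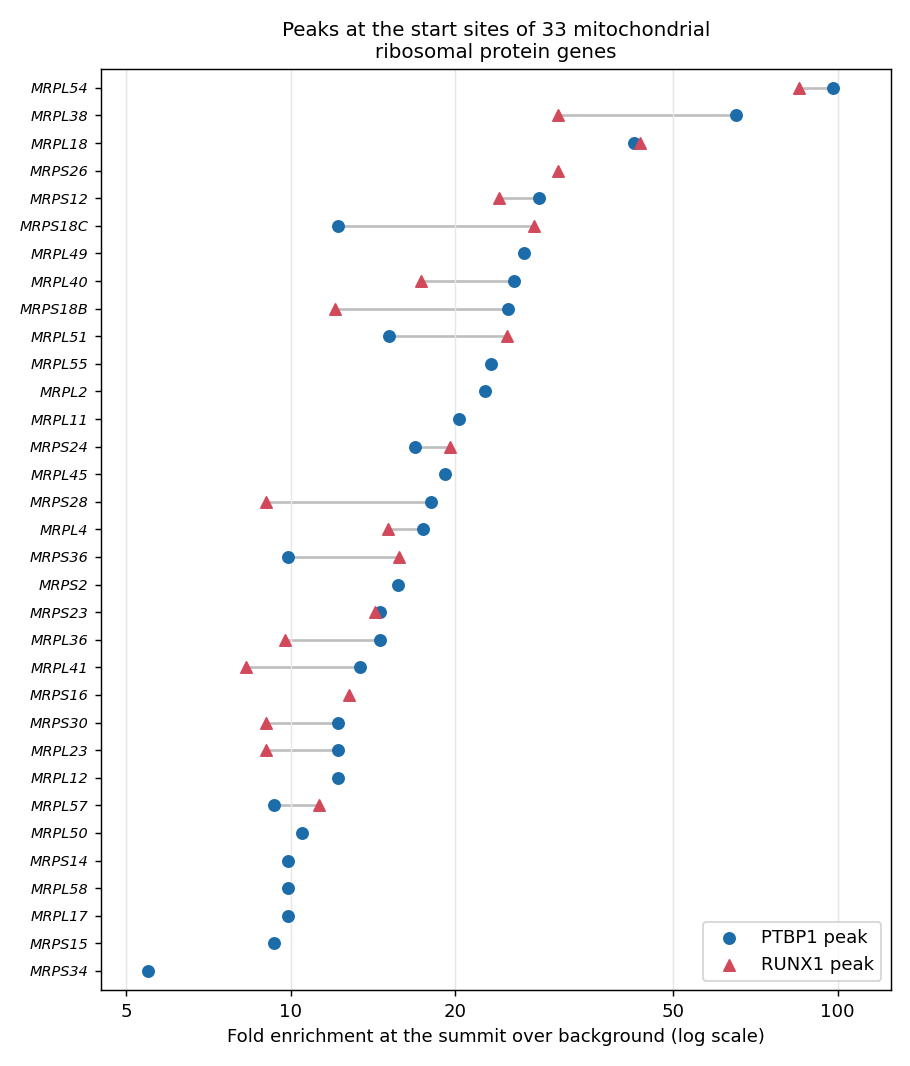
Fold enrichment at the summit (log axis) for each of the 33 members with a peak at the start, circles for PTBP1 and triangles for RUNX1, joined by a line where both were present. MRPL54 stands alone at 98.2 and 85.0, and most other members lie between 9 and 30.

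Some members with a PTBP1 peak alone stood above the members' PTBP1 median of 15.1-fold. They were MRPL49 (26.7-fold), MRPL55 (23.3-fold), MRPL2 (22.7-fold), MRPL11 (20.3-fold), MRPL45 (19.2-fold) and MRPS2 (15.7-fold). The all-gene median was also 15.7-fold. Both medians lay inside the counting intervals of MRPL11 (14.3 to 28.2), MRPL45 (13.3 to 26.8) and MRPS2 (10.5 to 22.7). MRPL2 encodes a protein near the peptidyl transferase centre, MRPL11 a protein of the GTPase-associated centre, and MRPL45 a protein at the exit tunnel that faces the inner membrane. The others were MRPL12 (12.2-fold), the gene of the stalk protein, MRPL50 (10.5-fold), MRPL17, MRPL58 and MRPS14 (9.88-fold each), MRPS15 (9.30-fold) and MRPS34 (5.48-fold). MRPL58 encodes a peptidyl-tRNA hydrolase that is part of the large subunit.

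Across these 13 genes the PTBP1 median was 12.2-fold, and across the 18 genes with both peaks it was 16.0-fold. Over all protein-coding genes the same medians were 11.6 and 19.2. Of the pair with RUNX1 alone, MRPS26 had 30.8-fold (22.2 to 41.7), on 40 fragments, level with MRPL38, and MRPS16 had 12.8-fold (7.63 to 20.3) on 16 fragments.

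At the 18 shared starts, the RUNX1 to PTBP1 ratio of fold enrichment had a median of 0.853 and ranged from 0.473 at MRPL38 to 2.28 at MRPS18C, with a median of 0.862 over the 3469 protein-coding genes with both. At these ends of the range the counting intervals of both targets did not overlap. MRPL38 had 65.1-fold for PTBP1 and 30.8-fold for RUNX1. MRPS18C had 12.2-fold for PTBP1 (7.68 to 18.5) and 27.8-fold for RUNX1 (19.7 to 38.2). Such intervals were computed for members only, so how often they part over all protein-coding genes is not known. Across the 18 genes Spearman's rho was 0.58 and Pearson's r of the log2 values 0.76, and across the 3469 genes they were 0.56 and 0.60. The points share a cell line and are genes, not replicates, and fold values of separate libraries are not on a common scale.

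**Figure D4:**
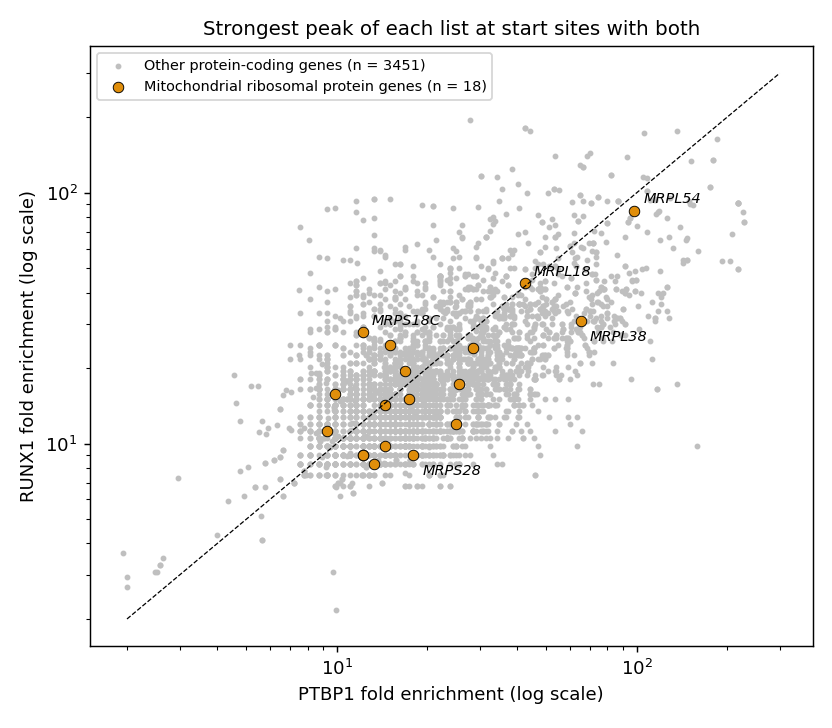
RUNX1 against PTBP1 fold enrichment (both axes log) of the strongest peak at starts with both, for 18 mitochondrial ribosomal protein genes (orange) and 3451 other protein-coding genes (grey); the dashed line marks equal values. MRPL54 lies at the upper right and MRPS18C farthest above the line among members, at a ratio of 2.28.

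The summits of the paired peaks lay a median of 115.5 bases apart (95% interval 26 to 225, n = 18 genes), with 79 over all protein-coding genes with both. They were within 200 bases at 13 of 18 members, 72.2%, with 79.6% over all genes. The closest were MRPL38 at 0 bases, MRPL57 at 9 and MRPS23 at 13. The widest were MRPS30 at 373, MRPL51 at 310 and MRPL36 at 287. Relative to the TSS, the summit stood at a median of 43 bases inside the gene for PTBP1 (-120 to 86) and 29 for RUNX1 (-135 to 158), both intervals including the start itself. Over all protein-coding genes with such a peak the medians were -18 and 5, inside these intervals. Measured from the start of the canonical transcript the medians became -145 and -68, that is upstream, and 23 of 31 PTBP1 and 14 of 20 RUNX1 summits lay upstream of that transcript.

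The gene's annotated 5′ end and the canonical transcript's start were more than 1000 bases apart at 6 members, MRPL11, MRPL34, MRPL36, MRPL37, MRPS22 and MRPS27. This bears most on MRPL34, which counts as a gene without a peak at the start. Its canonical start, 13263 bases inside the gene, had a PTBP1 peak of 41.3-fold and a RUNX1 peak of 35.3-fold, which would be among the highest of the family. MRPL11 had 15.7-fold PTBP1 and 9.02-fold RUNX1 peaks at its canonical start, 27890 bases inside. At MRPL37 the canonical start had a PTBP1 peak of 9.30-fold. At MRPL36, 1529 bases inside, the canonical start had the stronger peaks of the gene, 26.2-fold for PTBP1 and 12.03-fold for RUNX1, against 14.5-fold and 9.77-fold at the annotated 5′ end. Counted at canonical starts, 33 members had PTBP1 (42.3%, 32.0 to 53.4), 22 RUNX1 (28.2%, 19.4 to 39.0) and 20 both (25.6%, 17.3 to 36.3), where all protein-coding genes gave 27.5%, 22.4% and 18.2%.

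Elsewhere in the gene body, 8 members had a PTBP1 peak, 10.3% (5.29 to 19.0) with 12.4% over all genes, and 4 had a RUNX1 peak, 5.13% (2.01 to 12.5) with 11.5% over all genes. All 9 genes concerned carry an MRPL symbol. PTBP1 was in the body of 8 of 49 MRPL genes (16.3%, 8.51 to 29.0) and RUNX1 of 4 of 49 (8.16%, 3.22 to 19.2). For each target 0 of 29 MRPS genes had one (0 to 11.7), so the intervals of the subunits overlapped. Several of these body peaks are the canonical-start peaks above, at MRPL11, MRPL34, MRPL36 and MRPL37. MRPL34 had another pair with summits at -2483 bases from its canonical start (15.7-fold PTBP1, 13.5-fold RUNX1), MRPL11 another PTBP1 peak (12.8-fold) and MRPL37 another PTBP1 peak downstream of its canonical transcript (8.72-fold).

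The other body peaks were isolated. PTBP1 lay in intron 5 of MRPL28 (chr16:367788-368258, 11.6-fold) and in intron 8 of MRPL38 (chr17:75898881-75899756, 9.88-fold). It lay past the canonical transcript of MRPL12 (12.8-fold) and of MRPL23 (12.2-fold). The RUNX1 peak of MRPL33 (chr2:27830797-27831838, 18.0-fold) also lay past the canonical transcript, 59652 bases from its start. In all, 37 of the 78 genes (47.4%, 36.7 to 58.4) had a peak of either target at the start or in the body, with 39.6% over all genes.

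A further property that the selection did not use is the layout of the promoters. The start of another coding gene on the opposite strand lay within 1 kb at 27 of 78 members, 34.6% (25.01 to 45.7), with 13.4% over all genes. Of these 27 genes, 12 had PTBP1 (44.4%, 27.6 to 62.7) and 8 had both (29.6%, 15.9 to 48.5), where all protein-coding genes with such a neighbour gave 51.6% and 35.4%. Of the other 51 members, 19 had PTBP1 (37.3%, 25.3 to 51.0) and 10 had both (19.6%, 11.02 to 32.5), where all genes without one gave 22.5% and 14.5%. A peak at such a start cannot be assigned to one gene of the pair.

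The opposite neighbours of the 12 genes with PTBP1 were varied. MRPL18 faced TCP1, a subunit gene of the cytosolic chaperonin, and MRPL36 faced NDUFS6, a subunit gene of respiratory complex I. MRPL49 faced FAU, which encodes a cytosolic ribosomal protein, MRPL51 faced NCAPD2 of the condensin complex, and MRPS18C faced HELQ, a DNA helicase gene. MRPS12 faced SARS2, MRPL54 faced APBA3, MRPL57 faced SKA3, MRPS18B faced PPP1R10, MRPL50 faced ZNF189, MRPL11 faced PELI3 and MRPS34 faced EME2. MRPL46 and MRPS11, a pair of members that face each other, had no peak.

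Members with a peak were shorter on the median than those without. Median gene length was 7302.5 bases for the 18 with both, 5410 for the 13 with PTBP1 alone and 16365 for the 45 with neither. Over all protein-coding genes the same classes had 27584, 21818 and 27552 bases. Median GC content of the promoter (250 bases before to 50 after the TSS) was 60.2% in the members and 60.3% over all genes. It was 63.0% in the 33 members with a peak and 58.7% in the 45 without, where all genes gave 65.3% and 57.3%.

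In the same promoter window, ETS matches were found in 26 of 78 members (33.3%, 23.9 to 44.4), with 11.9% of all 20033 promoters. The YY1 motif AAGATGGC was in 15 (19.2%, 12.02 to 29.3), with 3.03% of all, and the NRF1 motif in 8 (10.3%, 5.29 to 19.0), with 3.78% of all. RUNX hexamers were in 14 (17.9%, 11.004 to 27.9), with 19.8% of all. The matches of ETS and YY1 were not limited to members with peaks. Of the 45 members without one, 16 had ETS (35.6%, 23.2 to 50.2) and 11 had YY1 (24.4%, 14.2 to 38.7). All protein-coding genes without a peak gave 9.60% and 2.37%. Of the 18 members with both peaks, 7 had ETS (38.9%, 20.3 to 61.4) and 3 had YY1 (16.7%, 5.84 to 39.2). All protein-coding genes with both gave 17.3% and 4.35%. ETS and YY1 matches occurred together in 6 members (7.69%), with 0.594% of all promoters. In no member did matches of different motifs overlap. Over all promoters such overlap reached at most 0.03% for any pair of motifs, so this does not set the members apart.

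**Figure D5:**
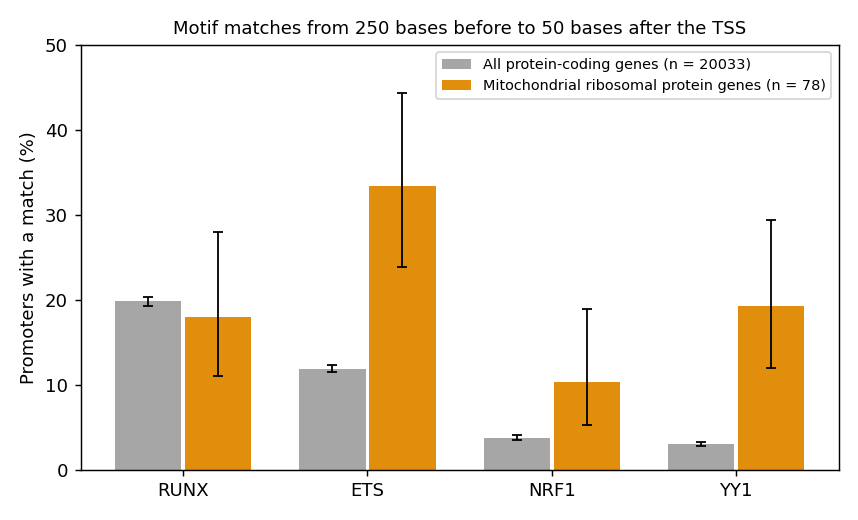
Percentage of promoters (250 bases before to 50 after the TSS) with a match to each motif on either strand, for all protein-coding genes (grey, n = 20033) and the 78 members (orange); error bars are 95% Wilson intervals. ETS stands at 33.3% against 11.9% and YY1 at 19.2% against 3.03%, while RUNX stands at 17.9% against 19.8%.

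Within 50 bases of the summit, a RUNX hexamer was present at 4 of 20 member RUNX1 peaks (20%, 8.07 to 41.6), with 13.0% of all RUNX1 peaks at protein-coding starts. At PTBP1 summits it was present in 1 of 31 (3.23%, 0.57 to 16.2), with 6.94% of all. ETS matches were at 4 of 20 RUNX1 summits (20%) and 4 of 31 PTBP1 summits (12.9%), with 5.73% and 5.23% of all. The 4 members with a hexamer at the RUNX1 summit were MRPS18C, MRPL23, MRPS30 and MRPS26. Their RUNX1 to PTBP1 ratios were 2.28 at MRPS18C and 0.739 at both MRPL23 and MRPS30, with no PTBP1 peak at MRPS26.

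Other genes of mitochondrial translation were counted for comparison. Of 5 mitoribosome proteins under other symbols, AURKAIP1 (37.8-fold PTBP1, 24.1-fold RUNX1), DAP3 (14.0-fold and 43.6-fold) and PTCD3 (9.88-fold and 10.5-fold) had both peaks, GADD45GIP1 had PTBP1 alone (13.4-fold), and CHCHD1 had neither. Of 13 translation factors 3 had PTBP1 and 3 had RUNX1, 23.1% each (8.18 to 50.3). Both were present at TUFM (20.9-fold and 18.0-fold), the mitochondrial elongation factor Tu gene, and MTRFR (26.7-fold and 12.03-fold), which acts in ribosome rescue. Of 25 assembly and rRNA modification factors 13 had PTBP1 (52%, 33.5 to 70.0), 10 RUNX1 (40%, 23.4 to 59.3) and 8 both (32%, 17.2 to 51.6). The highest was RBFA (67.4-fold and 49.6-fold), a small-subunit assembly factor gene. All protein-coding genes gave 26.4%, 21.3% and 17.3%. For the assembly factors these lay below the interval for PTBP1 and for RUNX1 and inside it for both. For the translation factors they lay inside the intervals.

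The cytosolic ribosomal protein genes, the most alike family, had PTBP1 at 46 of 77 starts (59.7%, 48.6 to 70.0), RUNX1 at 28 (36.4%, 26.5 to 47.5) and both at 24 (31.2%, 21.9 to 42.2). The intervals of both ribosomal families overlapped for PTBP1, for RUNX1 and for both, whereas the shares with neither, 57.7% (46.6 to 68.0) in the mitochondrial and 35.1% (25.3 to 46.2) in the cytosolic family, had intervals that did not overlap. Opposite-strand neighbours were at 14 of the 77 cytosolic genes (18.2%, 11.2 to 28.2), against 27 of the 78 mitochondrial ones and 13.4% of all protein-coding genes. No test of these differences was made, since the families were chosen with results of the same lists known.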

How the data were processed

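Per the labels, the series holds 13 CUT&Tag and CUT&RUN libraries of MOLM-13 cells. The authors clipped adapters, mapped paired reads to hg38 with Bowtie2, kept well-mapped reads, removed duplicates and called peaks with MACS3 (versions not given in the sources used here). They deposited 2 peak lists, which name a target but no assay or replicate. The lists were read as CUT&Tag because the methods describe peak calling for that assay, and pooling of replicates is not given in the sources used here. For each peak the deposited lists give the fold enrichment ratio at the summit, the −log10 p-value and −log10 q-value of the summit pileup and an integer score derived from the q-value. The lowest deposited −log10 q-value was 7.04 for PTBP1 and 7.24 for RUNX1. Depth is known only as fragments at each summit, which were solved from the fold enrichment and p-value (Poisson, 1 added to pileup and background).

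Genes came from GENCODE version 44. A peak was assigned to a start if it overlapped 1000 bases either side of the gene's 5′ end, and to the body if it overlapped the gene but not that window. Exons and introns are those of the canonical transcript at the summit, and coordinates are 1-based. Shares have 95% Wilson intervals, medians 95% order-statistic intervals and single peaks exact Poisson intervals. All cover counting error only. No test was made, because each target has 1 list. Python 3.11.15 with pandas 2.3.3, numpy 2.4.6, scipy 1.17.1 and matplotlib 3.10.9 was used, and the overlap, pileup and motif routines were tested on simulated data.

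Every member was named under its class. Values were given by rule for the 5 highest members of each list, those with a peak of 1 list, those with body peaks, the 3 closest and 3 widest summit pairs and those at the window's edge. Sequences were shown for members with both peaks and a motif within 50 bases of a summit, highest summed fold enrichment first, at most 6, none on chromosome 8. The members, lists and rules were chosen with earlier results of these data known. Values of a single further member were added where a statement needed them.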

Additional observations from a re-analysis of the deposited data

How the results depend on the processing

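Moving the window to 500 or 2000 bases, requiring the peak to cover the TSS base and requiring the summit within the window moved counts and medians little. With the TSS base required, members with PTBP1, RUNX1 and both at the start became 30, 18 and 16. Small-subunit members with both then fell from 8 to 6. With the window of 2000 bases, the median summit distance went from 115.5 to 94.5 bases. A threshold of −log10 q of at least 20 lowered the members with PTBP1, RUNX1 and both at the start to 19, 12 and 9, those with body peaks to 4 and 2, those with both and an opposite-strand start to 4, those with both and none to 5, and large- and small-subunit members with both to 6 and 3. This follows from fewer peaks, and over all protein-coding genes the shares also fell, to 17.8% for PTBP1 (members 24.4%, 16.2 to 34.9), 13.5% for RUNX1 (members 15.4%) and 10.5% for both (members 11.5%). The PTBP1 share of all genes then lay inside the members' interval. Leaving out members whose start another coding gene shares left 48 genes. Of these, 18 had PTBP1, 12 RUNX1 and 10 both at the start, and 5 had PTBP1 and 2 RUNX1 in the body. The shares over all protein-coding genes left by the same rule were not computed. Whether the members without shared starts stand above that background is therefore not known. With the canonical transcript's start in place of the gene's 5′ end, the median summit positions turned from 43 to -145 bases for PTBP1 and from 29 to -68 for RUNX1, since that start often lies inside the gene. The share with a RUNX match was 17.9% in promoters (78 members, 250 bases before to 50 after the TSS). It was 3.23% at PTBP1 summits (31 peaks) and 20% at RUNX1 summits (20 peaks), in a window of 50 bases either side. Over all protein-coding promoters and all peaks at protein-coding starts these shares were 19.8%, 6.94% and 13.0%. The promoter and summit windows differ in length, so their shares are not directly comparable, and the cause of the differences was not tested. No paired analysis was possible because the peak lists carry no replicate numbers and no result comes from a test, and for the same reason no replicate could be left out. Depth limits single genes to intervals such as 5.46 to 15.0-fold for a peak of 15 fragments.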
